A study of Mus musculus with 6 samples.

Results

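The olfactory receptor genes (Olfr) and the vomeronasal receptor genes (Vmn1r and Vmn2r) stand in large clusters in the mouse genome, and the accessibility of DNA at these clusters was compared between RANKL-treated and control small intestinal organoids. A window of 200 bp counted as a receptor window when the nearest end of a protein-coding gene (GRCm38), up to 200 kb away, belonged to an Olfr, Vmn1r or Vmn2r gene. This rule used positions and symbols and no read count, and it gave 486 of 55056 windows (0.883%), of which 317 were nearest to an Olfr, 70 to a Vmn1r and 99 to a Vmn2r gene.

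The assay was bulk ATAC-seq, which reads out accessible DNA through cuts by the transposase Tn5, here made in-house, on 50000 cells per library with reads of 38 bp. The 3 control libraries came from organoids kept in ENR medium, which holds EGF, noggin and R-spondin. The 3 RANKL libraries came from organoids given 100 ng/ml of RANKL, the TNF-family ligand under which intestinal precursors become microfold (M) cells, for 6 days, after 3 days of 3 µM CHIR99021 (a GSK3 inhibitor) with 1.5 mM valproic acid (a histone deacetylase inhibitor) and 1 day of ENR medium alone. The descriptions of the control libraries start with CVENR, a prefix that is not explained. The labels do not otherwise say whether control organoids also passed through CHIR99021 and valproic acid. Without that knowledge, RANKL and this pretreatment cannot be told apart here. Both groups were made from a line labelled "line26 wild type, Lgr5GFPDTR/+", from a single female mouse, in 3 numbered differentiation experiments, and cells were frozen before use. P-values therefore measure the spread between differentiations of that line. Whole organoids were assayed, so a change in the number of cells with open DNA and a change in openness per cell cannot be told apart.

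Olfactory receptors are G protein-coupled receptors of the nose, and each olfactory neuron expresses essentially a single Olfr allele while the other clusters lie in compact heterochromatin. Vmn1r and Vmn2r genes encode the pheromone receptors of apical and basal vomeronasal neurons. In most other tissues, the gut included, these genes are regarded as silent, and their loci can be read as a gauge of background in a gut library. Members of a family are close in sequence, so short reads can be hard to place among them, and how such reads were treated is not given in the sources used here.

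Receptor windows touched the promoters of their genes in very few places. Of 486 windows, 7 overlapped the 250 bases upstream of a gene start in the RefSeq promoter table (GRCm38.p6), and 5 of these promoters belonged to receptor genes. Shown are the promoter of the lncRNA gene Gm35742, which holds the window with the highest counts among the 7, and the receptor promoters with the longest overlaps, Olfr1358 and Olfr868. Capitals mark the bases inside the counted window, and the sequences run 5′ to 3′ on the plus strand (GRCm38.p6).
Gm35742, chr1:172990073-172990322: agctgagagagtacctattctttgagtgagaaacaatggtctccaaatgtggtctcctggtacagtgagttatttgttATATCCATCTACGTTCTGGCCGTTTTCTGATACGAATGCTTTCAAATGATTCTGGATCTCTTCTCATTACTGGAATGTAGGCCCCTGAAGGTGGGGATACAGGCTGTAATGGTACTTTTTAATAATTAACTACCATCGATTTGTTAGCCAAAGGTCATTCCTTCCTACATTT
Olfr1358, chr10:78517178-78517427: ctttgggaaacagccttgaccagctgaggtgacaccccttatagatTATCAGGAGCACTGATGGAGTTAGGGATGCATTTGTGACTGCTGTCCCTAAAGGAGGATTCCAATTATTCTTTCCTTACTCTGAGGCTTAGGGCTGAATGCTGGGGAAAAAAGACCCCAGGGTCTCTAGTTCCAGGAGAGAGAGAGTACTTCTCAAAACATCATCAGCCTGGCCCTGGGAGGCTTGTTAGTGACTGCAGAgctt
Olfr868, chr9:20098376-20098625: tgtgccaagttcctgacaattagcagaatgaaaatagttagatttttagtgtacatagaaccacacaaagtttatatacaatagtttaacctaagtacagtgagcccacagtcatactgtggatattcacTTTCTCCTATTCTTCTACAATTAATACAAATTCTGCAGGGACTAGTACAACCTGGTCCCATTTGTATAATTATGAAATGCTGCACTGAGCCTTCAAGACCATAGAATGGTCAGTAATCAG

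At the Gm35742 start, control libraries 1 to 3 had 35, 50 and 24 counts and RANKL libraries 1 to 3 had 7, 8 and 21. It lies between Olfr16 and Olfr1408, and its fall is described with the other called windows. Over the Olfr1358 promoter, controls had 10, 1 and 0 counts and RANKL libraries 0, 3 and 0. At Olfr868 the counts were 7, 2 and 2 against 1, 3 and 4. The windows over the 5 receptor promoters held 0 to 12 counts per library, and the groups overlapped at Olfr1358 and Olfr868. Receptor promoters as a class are AT-rich, with a median GC content of 34.8% over 1272 promoters of 1267 genes against 52.4% over all 32851 promoters of the table. The homeodomain core TAATTA, searched on both strands, is present in 18.0% of Olfr, 7.28% of Vmn1r and 16.1% of Vmn2r promoters and in 4.84% of all promoters; the Gm35742 and Olfr868 promoters hold it. The EBF motif CCCNNGGG, which reads the same on both strands, is present in 2.74% of Olfr and 19.5% of Vmn2r promoters and in 11.8% of all, and the Olfr1358 promoter holds it. These matches describe letters only.

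Windows were sparse across the receptor clusters. Receptor genes less than 1 Mb apart were joined into clusters, and 54 clusters on 18 chromosomes held a receptor window, with 121 of the windows on chromosome 7. The windows were nearest to 369 of 1465 annotated receptor genes (262 of 1110 Olfr, 48 of 231 Vmn1r and 59 of 124 Vmn2r genes). Clusters of at least 0.5 Mb held a median of 11.3 windows of any kind per Mb against 21.4 per Mb over all chromosomes, and 28 of these 31 clusters were below the genome-wide value. The emptiest was the cluster from Vmn1r91 to Vmn1r183 on chromosome 7 (chr7:20101158-24055691), with 86 Vmn1r genes. Its span held 2 windows of any kind, and 1 receptor window was nearest to its genes. The cluster from Olfr987 to Olfr1274 on chromosome 2 (chr2:85330967-90401674), with 222 Olfr genes, held 37 windows, or 7.30 per Mb.

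Most receptor windows lay away from genes. The median distance to the nearest receptor gene end was 7714 bp, 46 windows (9.47%) were within 1 kb of it against 18.8% of the other windows, and 427 lay outside protein-coding genes. Of all receptor windows 52 were centred inside a receptor gene, and 45 were centred inside a pseudogene or non-coding gene, a count that overlaps the others. The limit of 200 kb chose few windows: the farthest members lay 153719 and 160755 bp away, and the next windows beyond the limit lay 241325 and 309037 bp from a receptor gene. In 371 windows the nearest gene end on each side belonged to a receptor gene (windows between receptor genes), and the other 115 stood at a cluster's edge, with a gene of another kind, or none, on a side.

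Over all 55056 windows, control libraries totalled 455083 to 976881 counts and RANKL libraries 322173 to 828445. Reads outside the windows are not in these totals. Values are given as CPM (counts scaled to a common library total) after TMM scaling, and 3 counts were worth 3.00 to 9.26 CPM. Receptor windows had low coverage, with a median of 5.26 CPM over the 6 libraries (interquartile range 3.97 to 9.20) against 9.55 CPM in windows 1 to 200 kb from an end of another gene (other distal windows) and 32.8 CPM within 1 kb of one. A count of 0 in at least 1 library was found in 317 receptor windows (65.2%) and in 35.3% of all other windows. A mean of 20 CPM or more was reached by 42 receptor windows (8.64%) against 20.9% of other distal windows. The median mean level was alike in the 3 families, at 5.16 CPM for Olfr, 5.93 CPM for Vmn1r and 5.22 CPM for Vmn2r windows.

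The libraries differed more from each other at receptor windows than over all other windows, which were more strongly covered (median 10.7 against 5.26 CPM). The comparison was not matched for coverage. Across receptor windows, correlations of log2(CPM + 1) were 0.57 to 0.72 between control libraries and 0.25 to 0.36 between RANKL libraries, while across all other windows they were 0.72 to 0.80 and 0.62 to 0.67. These correlations are over windows that share libraries and low counts, and they are given as a description. In 190 receptor windows (39.1%) 1 library alone held more of the CPM than the other 5 together, against 14.7% of the other windows. The share was 44.2% between receptor genes (median 4.89 CPM) and 22.6% at cluster edges (median 7.70 CPM). The part of coverage in these differences was not tested. RANKL library 3 was the highest of the 6 in 27.2% of receptor windows and in 17.6% of the other windows.

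As a gauge of background among the windows, the share of each library's counts over all windows that fell in receptor windows was compared. Reads outside the windows do not enter it. The 200-bp share was 0.425%, 0.388% and 0.440% in controls 1 to 3 and 0.417%, 0.465% and 0.502% in RANKL libraries 1 to 3, and the groups overlapped. The mean share was 0.417% ± 0.027 (SD, n = 3) in controls and 0.461% ± 0.043 (SD, n = 3) with RANKL, a log2 ratio of 0.14 (two-sided exact permutation test, p = 0.3). Wilson 95% intervals, which cover counting error only, ran from 0.376% to 0.400% in control 2, from 0.421% to 0.460% in control 3, from 0.395% to 0.439% in RANKL 1 and from 0.487% to 0.517% in RANKL 3. With 3 libraries against 3, no exact p can go below 0.1.

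Over the 2 kb around the same centres the groups separated. The 2-kb share was 0.448%, 0.415% and 0.440% in controls and 0.514%, 0.552% and 0.561% with RANKL, so each RANKL library was above each control. The means were 0.434% ± 0.017 and 0.542% ± 0.025 (SD, n = 3 each), a log2 ratio of 0.32 (exact permutation p = 0.1, the smallest possible). The 3 families gave like ratios of the 2-kb share, 0.32 for Olfr, 0.31 for Vmn1r and 0.34 for Vmn2r windows (log2). Windows between receptor genes had a log2 ratio of 0.41 and those at cluster edges 0.12.

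Other distal windows had a log2 ratio of 0.02 in the 2-kb share. The difference between receptor and other distal windows was 0.30 on the log2 scale (exact permutation p = 0.1, the smallest possible). Clusters of other tissue-restricted genes (keratin-associated proteins, late cornified envelope, major urinary proteins, interferon alpha, beta-defensins, Rhox, Obox and caseins; 81 windows) had a log2 ratio of -0.13, and receptor windows differed from them by 0.45 (exact permutation p = 0.1).

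The reads at receptor windows were also less concentrated at the window centre with RANKL. The central 200 bp held 38.8%, 37.3% and 40.2% of the 2-kb counts of receptor windows in controls and 29.6%, 28.6% and 32.2% with RANKL. The groups did not overlap, at 38.8% ± 1.5 against 30.1% ± 1.9 (SD, n = 3 each; exact permutation p = 0.1). A lower central share was also measured in other distal windows, 41.6% ± 0.7 against 34.3% ± 1.5, and the log2 changes of both classes differed by -0.09 (exact permutation p = 0.3). Within 1 kb of ends of other genes the central share was 38.9% ± 0.4 and 38.2% ± 1.2.

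**Figure D1:**
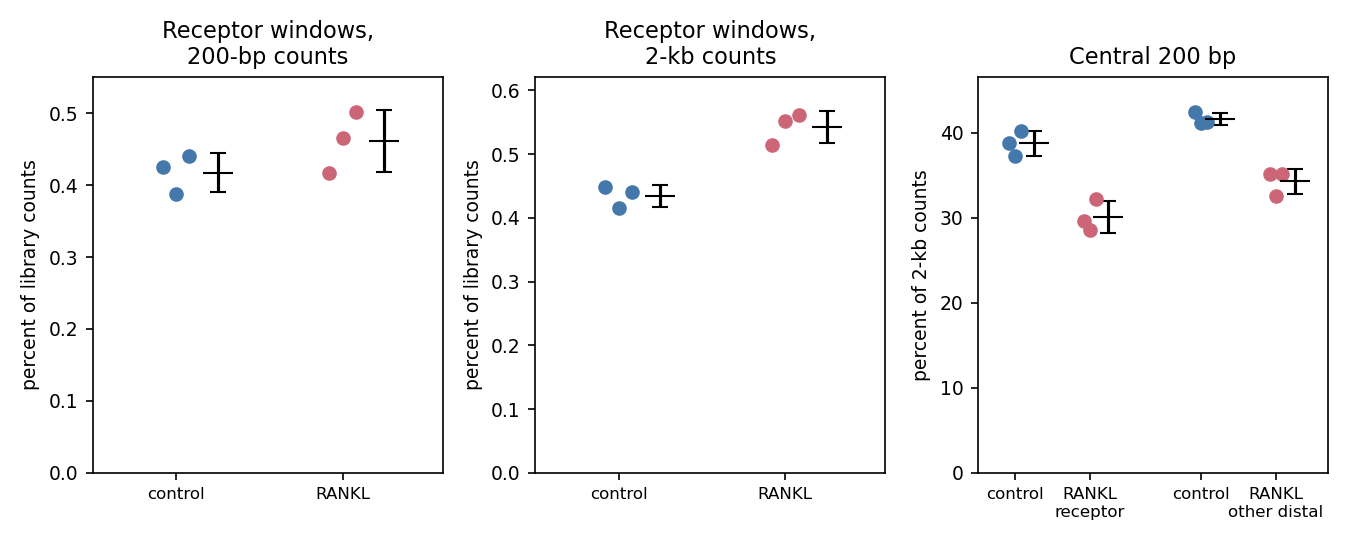
Share of each library's counts over all windows that fell in receptor windows, at 200 bp and 2 kb. Beside it stands the share of 2-kb counts in the central 200 bp for receptor windows and other distal windows. All are in percent, with a point per library and the mean ± SD of 3 libraries as a bar. The groups overlap in the 200-bp share and do not in the 2-kb share, and the central share is lower with RANKL in both window classes.

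The difference between the groups varied with how strongly a window was covered. Windows were binned by their mean CPM over all 6 libraries, and CPM was summed per library in each bin. Below 5 CPM, 225 receptor windows summed to 713, 376 and 673 CPM in controls and to 726, 1146 and 1408 CPM with RANKL, a log2 ratio of 0.90. Control 2 was the lowest and RANKL 1 close to control 1. From 5 to 10 CPM, 147 receptor windows summed to 709, 703 and 799 CPM in controls and 1148, 1328 and 1256 CPM with RANKL, a log2 ratio of 0.76. From 10 to 20 CPM the groups overlapped (72 windows, log2 ratio -0.01). At 20 CPM and above the order turned: 42 receptor windows summed to 1790, 1797 and 1795 CPM in controls and 1371, 1321 and 1419 CPM with RANKL, a log2 ratio of -0.39. Each of the non-overlapping bins had an exact permutation p of 0.1, the smallest possible.

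In other distal windows of the same levels the log2 ratios of 200-bp sums were 0.07, 0.12, 0.04 and -0.11 from the lowest to the highest bin. Receptor windows differed from them by 0.83, 0.63, -0.05 and -0.28 (exact permutation p = 0.1, 0.1, 0.7 and 0.1). Windows between receptor genes showed the pattern most strongly, with log2 ratios of 1.09 and 1.03 in the lower bins (190 and 112 windows) and -0.85 at 20 CPM and above (24 windows). The latter summed to 1126, 1080 and 1110 CPM in controls and 611, 555 and 681 CPM with RANKL. Over 2 kb, other distal windows also went from higher with RANKL in the low bins to lower in the top bin, with log2 ratios of 0.47, 0.23, 0.00 and -0.29 against 0.87, 0.70, 0.06 and -0.57 for receptor windows. The difference between the classes was then 0.40 in the lowest bin, less than the 0.83 at 200 bp, and 0.47, 0.05 and -0.27 in the others (exact permutation p = 0.1, 0.1, 0.7 and 0.1). With each library left out in turn, the log2 ratio of all receptor windows under 10 CPM was 0.63 to 1.04, the lowest without control 2, and that at 20 CPM and above -0.49 to -0.36.

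**Figure D2:**
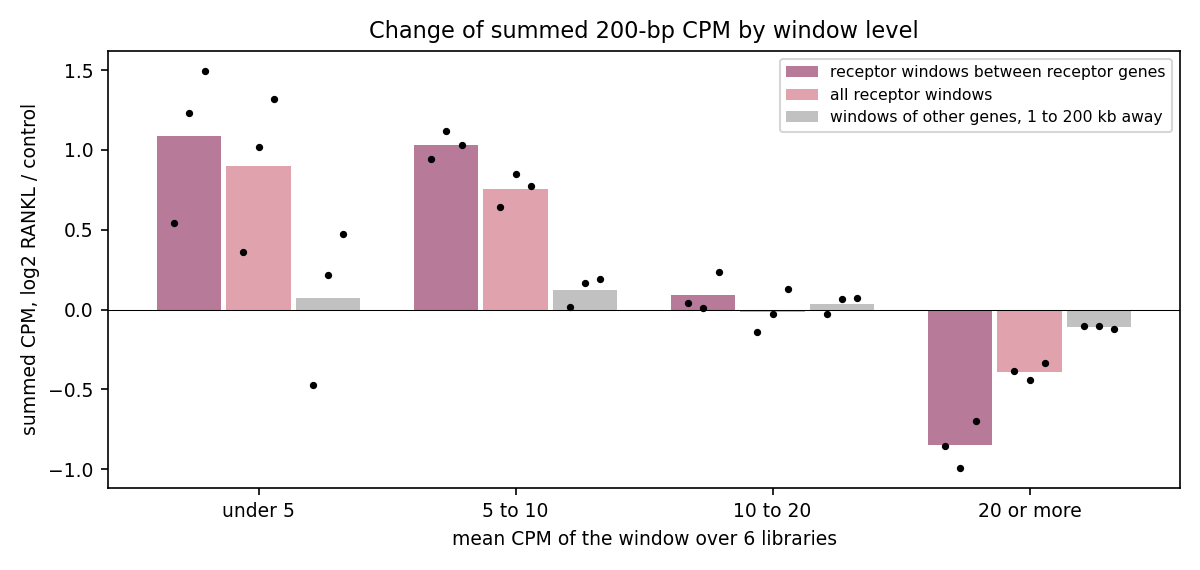
Log2 ratio of RANKL to control of summed 200-bp CPM, by mean CPM of the window, for windows between receptor genes, all receptor windows and other distal windows; bars are ratios of group means on the log2 scale and points single RANKL libraries against the control mean. Low receptor windows lie above 0, strong ones below 0, and other distal windows lie nearer to 0 in every bin but that from 10 to 20 CPM.

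Of the 486 receptor windows, 65 (13.4%) passed the filter on low counts for the 200-bp test (edgeR's quasi-likelihood test, Benjamini-Hochberg adjusted over 21618 windows; at least 15.4 CPM in 3 or more libraries), against 39.5% of the other windows. Among these, 5 were called higher with RANKL (7.69%) where 10.0% of all tested windows were, and 20 were called lower (30.8%) where the background was also 10.0%. In the other tissue-restricted clusters 8 of 21 tested windows were called lower (38.1%) and 2 higher (9.52%), and of other distal windows 13.3% were lower, so a high share of falls was also found outside the receptor windows. The filter shapes these counts: 3 of the 20 lower windows passed it through the controls only, and 2 of the 5 higher ones through RANKL libraries only, and such windows had to differ. They are the windows at Olfr948, the nearer one at Vmn2r67 and that at Vmn1r215 among the falls, and Olfr1402 and Vmn1r43 among the rises; in the fit without a filter their adjusted p was 8.13e-17, 0.000786, 0.0207, 3.05e-10 and 0.000305. Without the filter, 25 of 486 were called higher (5.14%, background 5.82%) and 18 lower (3.70%, background 3.58%), shares near the background. With DESeq2, which gave an adjusted p to 245 receptor windows, 21 were called higher (8.57%, background 5.10%) and 10 lower (4.08%, background 2.28%). Of the 38 tested windows between receptor genes, 1 was higher (2.63%) and 18 lower (47.4%). Of the 27 at cluster edges, 4 were higher (14.8%) and 2 lower (7.41%). These shares depended on the filter. Without it, 20 of 371 windows between receptor genes were higher (5.39%) and 14 lower (3.77%). At cluster edges 5 of 115 were then higher (4.35%) and 4 lower (3.48%). In DESeq2, 16 of 169 windows between receptor genes were higher (9.47%) and 8 lower (4.73%).

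The window with the largest fall lay 8342 bp from Olfr948 (chr9:39327855-39328054), in intergenic DNA between Olfr948 and Olfr951. It had 63.1, 62.0 and 96.4 CPM in controls and 6.18, 6.59 and 6.21 CPM with RANKL. Each control was far above each RANKL library, and the fall was 3.44 on the log2 scale (SE 0.37, edgeR adjusted p = 1.27e-17, for a window that passed the filter through the controls only). A neighbour in the same cluster, 28645 bp from Olfr945 (chr9:39287225-39287424), fell by 1.15 (adjusted p = 3.46e-05), and it was chosen after its values were seen.

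A pair of windows beside Vmn2r67, a pheromone receptor gene of the basal vomeronasal class on chromosome 7, both fell. The nearer, 2226 bp away between Vmn2r67 and Vmn2r68 (chr7:85158029-85158228), had 28.3, 23.0 and 32.1 CPM in controls and 3.09, 8.78 and 3.73 CPM with RANKL. The farther, on the side of Vmn2r66 (chr7:85104593-85104792), had 50.0, 52.0 and 49.3 CPM in controls and 24.7, 19.8 and 4.97 CPM with RANKL. Groups did not overlap in either, and the falls were 2.38 (SE 0.54, edgeR adjusted p = 0.000223, passing the filter through the controls only) and 1.88 (SE 0.35, adjusted p = 2.32e-06).

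On chromosome 7 the Olfr65 and Olfr713 windows, both intergenic between Olfr genes, also fell. The Olfr65 window (chr7:103910123-103910322) had 35.9, 41.0 and 36.4 CPM in controls and 15.4, 0 and 11.2 CPM with RANKL. The Olfr713 window (chr7:107043267-107043466) had 50.0, 59.0 and 40.7 CPM in controls and 9.26, 8.78 and 17.4 CPM with RANKL. Both groups were apart at each locus, and the falls were 2.09 (SE 0.42) and 1.95 (SE 0.35) with edgeR adjusted p of 2.46e-05 and 7.16e-07.

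Vmn2r29 carried the only fall called at 200 bp within 1 kb of a receptor gene end, at 521 bp and inside the gene (chr7:7277669-7277868). Its CPM was 43.5, 26.0 and 49.3 in controls and 9.26, 11.0 and 16.2 with RANKL, a fall of 1.53 (SE 0.38, edgeR adjusted p = 0.00104). The Olfr267 window (chr4:58722894-58723093) stood at a cluster edge, 61786 bp from Olfr267 and next to Lpar1, a lysophosphatidic acid receptor gene. It had 62.0, 71.0 and 49.3 CPM in controls and 12.4, 19.8 and 14.9 CPM with RANKL, a fall of 1.97 (SE 0.31, adjusted p = 1.10e-08).

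The other 3 of the 10 largest falls were less firm. A window between Vmn1r214 and Vmn1r215 (chr13:23069352-23069551) fell by 1.90 (edgeR adjusted p = 0.00866, passing the filter through the controls only), with an adjusted p of 0.0580 in DESeq2 and 0.0591 without RANKL 3. At Vmn2r120 (chr17:57574109-57574308) the fall was 1.52 (adjusted p = 0.0059), with 0.0561 in DESeq2. The Olfr166 window (chr16:19464377-19464576) had 25.0, 29.0 and 30.0 CPM in controls and 6.18, 2.20 and 19.9 CPM with RANKL, where RANKL 3 stood near the controls. Its fall of 1.26 (adjusted p = 0.0244) was lost in 6 alternatives, among them DESeq2 (adjusted p = 0.131) and the fits without RANKL 1 (0.0829), RANKL 2 (0.207), control 2 (0.0903) or control 3 (0.0520).

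Among the remaining called falls, the windows near Olfr933 and Vmn1r191 lost the call when the experiment number was a block in edgeR (adjusted p = 0.0804 and 0.0868). Both were also not called in DESeq2 (adjusted p = 0.178 and 0.190) or in edgeR without the filter (0.0826 and 0.0903). The fall near Vmn1r216 was lost in DESeq2 (adjusted p = 0.132) and in edgeR without the filter (0.0560). Those near Olfr56 and Olfr31 were lost in DESeq2 (adjusted p = 0.0641 and 0.0530). The Olfr16 window at the Gm35742 start fell by 1.02 (SE 0.31, adjusted p = 0.00934), and its call was lost in DESeq2 (adjusted p = 0.0730) and without RANKL 2 (0.0511). The windows named in this paragraph were chosen after their values were seen.

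The largest rise lay at Olfr1402, a lone olfactory receptor gene on chromosome 3. The window (chr3:97428860-97429059) stands 17780 bp from the gene, on the side of Chd1l, which encodes a chromatin remodeller. It had 1.09, 6.00 and 4.28 CPM in controls and 55.6, 41.7 and 37.3 CPM with RANKL. No control came near a RANKL library, and the rise was 3.46 on the log2 scale (SE 0.49, edgeR adjusted p = 2.18e-10, for a window that passed the filter through the RANKL libraries only).

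The other called rises had a Vmn1r gene as the nearest, at distances up to 117074 bp. Of 16 tested Vmn1r windows 4 were called higher (25.0%), against 10.0% of all tested windows. Without the filter, 4 of 70 Vmn1r windows were called higher (5.71%), near the background of 5.82%. A window between Vmn1r42 and Vmn1r43, 1371 bp from Vmn1r43 (chr6:89867991-89868190), was the only rise between receptor genes called in the filtered 200-bp test. It had 3, 4 and 0 counts in controls and 7, 16 and 13 with RANKL, or 3.26, 4.00 and 0 CPM against 21.6, 35.1 and 16.2 CPM, a rise of 2.94 (SE 0.64, edgeR adjusted p = 9.39e-05, again passing the filter through RANKL libraries only). Another window stood at a cluster edge between Vmn1r39, 43783 bp away, and Gng12, a G protein gamma subunit gene (chr6:66849016-66849215). Its CPM was 10.9, 17.0 and 6.43 in controls and 37.1, 46.1 and 43.5 with RANKL, a rise of 1.77 (SE 0.37, edgeR adjusted p = 5.43e-05).

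The Vmn1r90 window (chr7:14541539-14541738), 19604 bp from the gene and inside the transcribed pseudogene Nlrp5-ps, had 19.6, 23.0 and 10.7 CPM in controls and 46.3, 35.1 and 43.5 CPM with RANKL. Its rise of 1.12 (SE 0.34, edgeR adjusted p = 0.00774) was not called without RANKL 3 (adjusted p = 0.0618). The Vmn1r238 window (chr18:3005319-3005518), 117074 bp from the gene, is the first window of chromosome 18 in the table. It had 39.2, 42.0 and 36.4 CPM in controls and 80.3, 85.6 and 63.4 CPM with RANKL, a rise of 0.89 (SE 0.22, adjusted p = 0.00100).

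**Figure D3:**
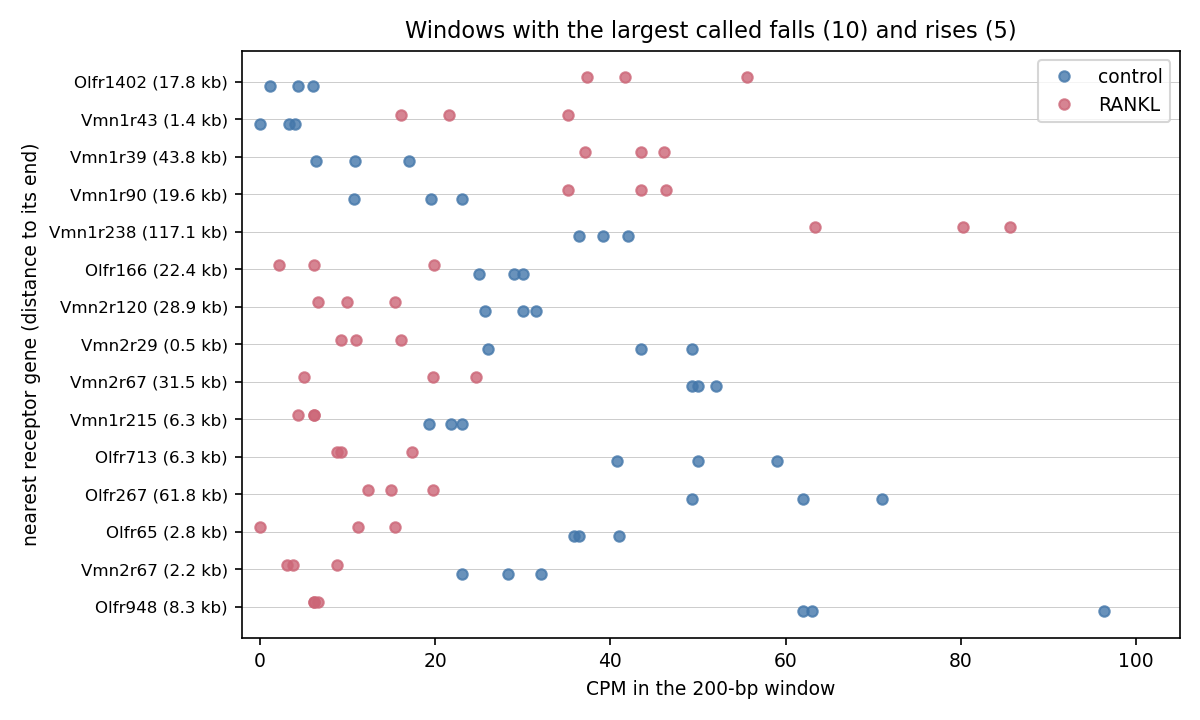
CPM per library of the 10 receptor windows with the largest called falls and the 5 called rises, named by the nearest receptor gene and its distance. In each of these windows the 3 control libraries lie on one side of the 3 RANKL libraries.

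Some of the most strongly covered receptor windows lay near a chromosome end or inside another gene. The highest, 44644 bp from Vmn2r87 and the last window but one of chromosome 10 (chr10:130541924-130542123), had 108 ± 6.4 CPM in controls and 103 ± 9.6 CPM with RANKL (SD, n = 3 each; log2 fold change -0.07, edgeR adjusted p = 0.813). The Vmn1r4 window (chr6:56923852-56924051), 37 bp from the gene end, also lies inside Nt5c3, a nucleotidase gene of wide expression. It had 71.9 ± 2.7 CPM in controls and 72.6 ± 12.2 CPM with RANKL (SD, n = 3 each; log2 fold change -0.03, edgeR adjusted p = 0.933), the highest level among receptor windows within 1 kb of a gene end. The windows near Olfr58 and Olfr726, both between Olfr genes, fell by 0.65 and 0.72 (adjusted p = 0.0156 and 0.0118), and neither fall was called in DESeq2 (adjusted p = 0.133 and 0.105). Without control 1 or RANKL 2 the Olfr58 call was lost (adjusted p = 0.0760 and 0.0877), as was that of Olfr726 without control 2 or RANKL 1 (0.0617 and 0.0544). Beside the other receptor gene ends with high coverage within 1 kb, Olfr1160, Olfr653 and Olfr1532-ps1, log2 fold changes were -0.57, -0.49 and -0.16, with adjusted p of 0.170, 0.369 and 0.775. In the 2-kb scores the Olfr1160 window, 957 bp from the gene, was called lower (difference -0.67, limma adjusted p = 0.0190), as was one 977 bp from Olfr1443 (-0.99, adjusted p = 0.0257), which was chosen after its values were seen.

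The deposited 2-kb scores, which standardise the log count of each library to mean 0 and SD 1, could be tested for all 486 receptor windows. The score was higher with RANKL in 293 of them (60.3%) whatever the p, against 47.8% of all other windows, with a median difference of 0.21 SD units against -0.03 over all windows. By limma with Benjamini-Hochberg adjustment over 55050 windows, 34 were called higher (7.00%, background 5.72%) and 26 lower (5.35%, background 5.46%), both shares near the background. The windows called higher were weakly covered (median 6.60 CPM at 200 bp, 7 of 34 tested there), while those called lower had a median of 23.9 CPM and 19 of 26 were tested. Of the 200-bp calls, 17 of 20 falls and 5 of 5 rises were also called in the 2-kb scores, which share reads with them, and none had the opposite sign. In edgeR on 2-kb counts recovered from the scores, 83 of 381 receptor windows were called higher (21.8%, background 8.39%) and 30 lower (7.87%, background 10.2%). Offsets fitted by loess on abundance left 45 higher (11.8%, background 7.78%) and 24 lower (6.30%, background 6.17%).

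The largest rise in the 2-kb score was near Olfr360, on chromosome 2, at 2.44 SD units (SE 0.45, limma adjusted p = 0.000393). Its 2-kb counts were 2, 8 and 0 in controls and 17, 21 and 53 with RANKL. The Olfr1402 window rose by 1.98 (adjusted p = 6.16e-05), with 2-kb counts of 4, 14 and 4 against 32, 32 and 53. The Olfr948 window had the largest fall, 2.03 SD units (SE 0.20, adjusted p = 3.07e-08), with 2-kb counts of 157, 147 and 89 against 9, 20 and 20. Olfr360 was chosen after its values were seen.

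**Figure D4:**
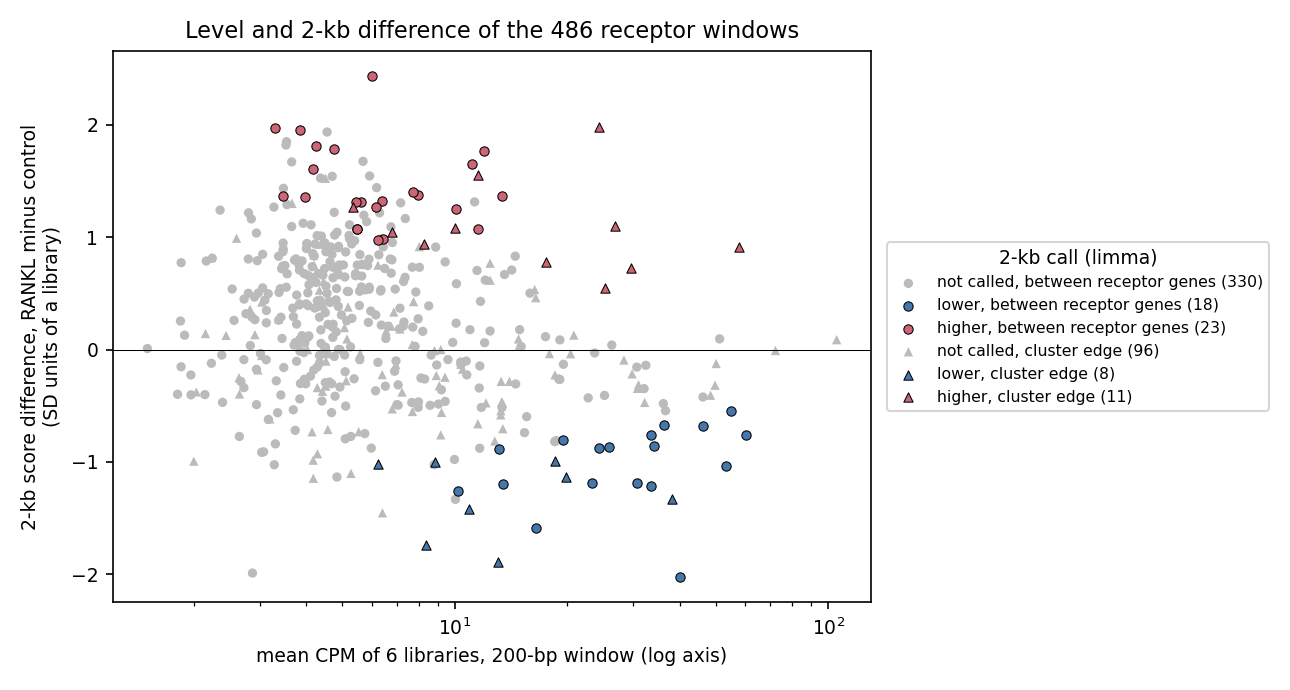
Difference in 2-kb score (RANKL minus control, in SD units of a library) against mean CPM of the 200-bp window (log axis) for all 486 receptor windows; circles lie between receptor genes, triangles at cluster edges, and colour marks the limma call. Windows called lower have mostly the higher CPM (median 23.9) and windows called higher the lower (median 6.60).

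Sums over clusters reached counts that single windows did not. Of 54 clusters 44 were tested in edgeR beside sums over all other genes. Of these, 18 were called higher (40.9%, background 7.61%) and 7 lower (15.9%, background 9.25%). The background is mostly sums over single genes, while clusters held up to 37 windows, so the test need not be equally sensitive in both. Groups overlapped in the called rises from Olfr172 to Olfr209, Vmn2r90 to Vmn1r237, Olfr987 to Olfr1274 and Vmn2r19 to Vmn2r27. The median log2 fold change was 0.21 over the tested clusters and 0.01 over all sums.

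Clusters of olfactory receptor genes led the rises. The cluster linked to the major histocompatibility complex, from Olfr90 to Olfr136 (chr17:37085191-38336097; 46 genes, 19 windows), had 108, 108 and 103 CPM in controls and 193, 194 and 248 CPM with RANKL. It rose by 1.02 on the log2 scale (SE 0.15, edgeR adjusted p = 4.59e-09), although 1 of its windows could be tested alone and none was called. From Olfr1275 to Olfr1318 on chromosome 2 (chr2:111230853-112157007; 9 windows) CPM was 5.50, 6.17 and 26.8 in controls and 52.0, 55.3 and 69.4 with RANKL, a rise of 2.53 (SE 0.38, adjusted p = 3.67e-08). The clusters from Olfr459 to Olfr47 on chromosome 6 and from Olfr20 to Olfr412 on chromosome 11 rose by 1.50 (SE 0.25, adjusted p = 6.92e-07) and 2.60 (SE 0.52, adjusted p = 5.02e-05). The latter had 2, 5 and 6 counts in controls and 5, 20 and 37 with RANKL, and passed the filter through RANKL libraries only. The Olfr1402 window alone makes up its cluster, which passed the filter in the same way. Such sums had to differ, and both count among the 18 called higher.

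The fall with the smallest p was in a mixed cluster, and it was the smallest in size of the 5 named here. From Olfr1370 to Vmn1r223 on chromosome 13 (chr13:21072349-23250323; 12 Olfr and 36 Vmn1r genes, 18 windows) CPM was 295, 287 and 295 in controls and 208, 128 and 193 with RANKL, a fall of 0.73 (SE 0.12, edgeR adjusted p = 1.33e-06). The Olfr267 locus fell by 0.82 (adjusted p = 5.78e-05) over 4 windows and the cluster from Olfr1396 to Olfr1380 on chromosome 11 by 1.09 (adjusted p = 0.000267). Clusters from Olfr164 to Olfr171 on chromosome 16 and from Olfr720 to Olfr31 on chromosome 14 fell by 0.96 and 1.13 (adjusted p = 0.00169 and 0.00253).

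The clusters with the most windows moved little or depended on the fit. The Olfr987 to Olfr1274 cluster had 211, 140 and 219 CPM in controls and 199, 306 and 296 CPM with RANKL, which overlap. Its rise of 0.57 (SE 0.13, edgeR adjusted p = 0.000429) was not called in DESeq2 (adjusted p = 0.278) or without control 2 (0.0915). The vomeronasal cluster from Vmn2r90 to Vmn1r237 on chromosome 17 (34 windows) rose by 0.36 (adjusted p = 0.0167), with overlapping groups, and the call was lost with the experiment number as a block (0.0722), in DESeq2 (0.135), without control 2 (0.111) and without RANKL 3 (0.385). On chromosome 9 the cluster from Olfr160 to Olfr986 (25 windows), which holds the Olfr948 window, fell by 0.30 (adjusted p = 0.0430), and the call was lost in DESeq2 (0.170) and without control 1 (0.299), control 3 (0.0858), RANKL 1 (0.162) or RANKL 2 (0.0718). The clusters from Olfr543 to Olfr692 (36 windows) and Olfr693 to Olfr519 (30 windows) on chromosome 7 had log2 fold changes of -0.02 and -0.10, with adjusted p of 0.922 and 0.601.

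**Figure D5:**
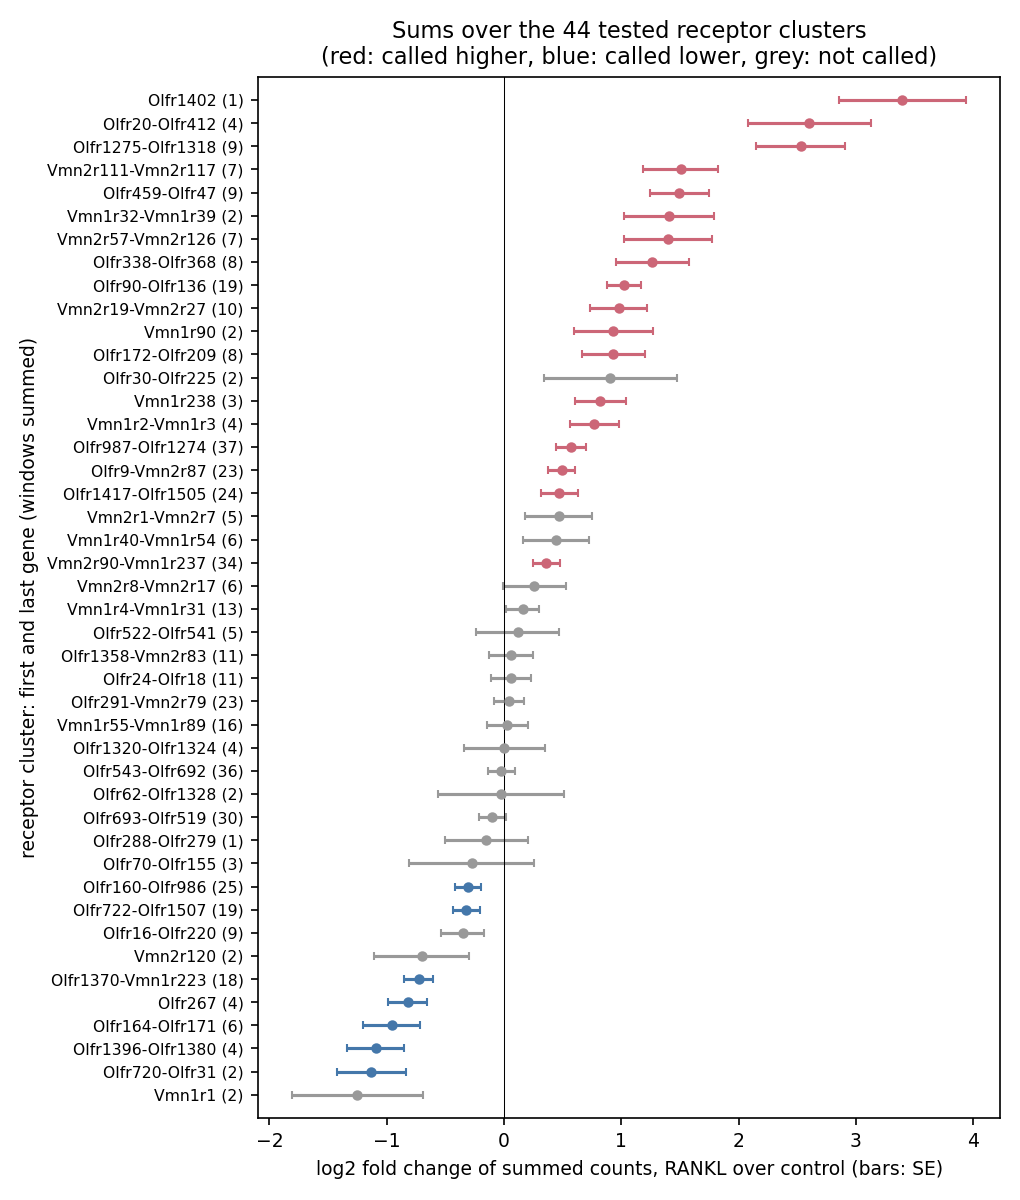
Log2 fold change (RANKL over control) of summed 200-bp counts with its SE for the 44 tested receptor clusters, named by their first and last gene, with the number of windows summed. Called rises (18) outnumber called falls (7), and the largest rises belong to clusters of 1, 4 and 9 windows. Among these, Olfr1402 (1 window) and Olfr20 to Olfr412 (4 windows) passed the filter through RANKL libraries only.

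Receptors reported outside the nose gave little signal here. Olfr78, Olfr558 and Olfr544, reported in gut enteroendocrine cells, were nearest to no window. Vmn2r26, reported in gut epithelium, was nearest to 3 windows with 0 to 12 counts per library, none of which passed the filter. The window inside Vmn2r26 (chr6:124051095-124051294) had 0, 0 and 5 counts in controls and 0, 2 and 1 with RANKL, too few at this depth to show a difference.

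Genes that serve the receptors were summed by nearest gene end. Of 35 genes of olfactory and vomeronasal signalling and receptor choice, 34 had windows, 27 were tested, 1 was higher and 3 were lower; the median log2 fold change was -0.25. Omp, the marker protein of mature olfactory neurons, rose from 18.1 ± 3.7 to 55.9 ± 7.3 CPM (SD, n = 3 each), by 1.71 on the log2 scale (SE 0.33, edgeR adjusted p = 2.23e-05). Both of its windows lie inside Capn5, a calpain gene, so they need not belong to Omp. Cnga4 and Cngb1, subunits of the olfactory cyclic nucleotide-gated channel, fell by 0.68 (adjusted p = 0.0334) and 1.21 (adjusted p = 0.0139). Bcl11b, a transcription factor of olfactory neuron identity, fell by 0.55 (adjusted p = 0.00030). Gene sums as a whole were called higher in 7.61% and lower in 9.25%.

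Few genes of other chemosensory receptor families were tested, and none was called higher. Over all sums 7.61% were called higher and 9.25% lower. The trace amine receptors (Taar) had 1 gene tested of 15 and Ms4a 4 of 21, with no call in either. Of 35 bitter taste receptors (Tas2r), 5 were tested and 2 were lower: Tas2r118 by 0.92 (edgeR adjusted p = 0.00147) and Tas2r134 by 0.63 (adjusted p = 0.0461). Among formyl peptide receptors (Fpr), 2 of 7 were tested and Fpr3 was lower by 0.78 (adjusted p = 0.00854). The sweet and umami receptors (Tas1r) had no gene tested of 3.

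Of the marker lists, that of intestinal epithelium had the highest mean level per gene. All 11 of its markers had windows, with 146 CPM per gene on average, against 18.3 CPM over 6 olfactory neuron, 62.6 CPM over 4 vomeronasal neuron, 30.4 CPM over 5 haematopoietic and 59.6 CPM over 5 mesenchymal markers. All olfactory neuron and mesenchymal markers also had windows. Levels are sums not scaled to the number of windows, and single genes of the lists overlapped. Ptprc, Pdgfra and Gnao1, of other lists, had control means of 141, 143 and 119 CPM. Those of the intestinal markers Vil1, Krt8 and Krt20 were 94.7, 73.1 and 5.34 CPM. The summed olfactory neuron markers were 71.4 to 102 CPM in controls and 132 to 143 CPM with RANKL, of which Omp made up the called part. Gng13 and Stoml3, other olfactory neuron markers, had 4.40 ± 5.94 and 6.38 ± 5.54 CPM in controls and 3.15 ± 2.61 and 4.43 ± 1.47 CPM with RANKL (SD, n = 3 each), while Gnal, Adcy3 and Cnga2 had means of 20.7, 14.6 and 20.4 CPM in controls and 33.0, 16.1 and 22.7 CPM with RANKL. Gnal and Cnga2 were tested and not called (edgeR adjusted p = 0.374 and 0.831). Intestinal markers summed to 1748 to 1799 CPM in controls and 1389 to 1507 CPM with RANKL. Of 10 tested, 3 were lower where 9.25% of all sums were: Lgr5 (log2 fold change -1.27, edgeR adjusted p = 7.12e-11), Cdh17 and Epcam. Vil1, Hnf4a and Krt8 had log2 fold changes of 0.04, 0.05 and 0.002. Those of Cdx1, Cdx2, Olfm4 and Lgals4, not called, were -0.28, -0.19, -0.31 and -0.40. Mesenchymal markers summed to 248 to 302 CPM in controls and 318 to 324 CPM with RANKL. Pdgfrb alone of 4 tested was called higher, where 7.61% of all sums were. The part of these shifts in the receptor windows' values was not tested.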

How the data were processed

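The authors deposited raw counts in 55056 windows of 200 bp and, for 55050 of them, a score over 2 kb around the centre. From its values the score is ln(count + 1), standardised per library, and 2-kb counts recovered from it were within 0.0081 of whole numbers. Tools listed in the submitters' processing notes, without roles, are MACS2 2.2.7, DESeq2 1.34.0, BWA 0.7.17, fastp 0.20.1 and Picard. Not given in the sources used here are window choice, duplicate removal, read placement and any Tn5 shift. Columns that matched no sample numbered 0.

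Windows went to the nearest protein-coding gene end in RefSeq GRCm38.p6. Counts were tested with edgeR 4.0.16 (TMM, filterByExpr, robust quasi-likelihood) and scores with limma 3.58.1, over all windows, at an adjusted p of 0.05; DESeq2 1.42.0, other filters, scalings, window definitions and left-out libraries were alternatives. In the CPM of clusters and genes, TMM was fitted on those sums. In simulated data edgeR called 82 of 100 windows with a 4-fold change and 51 of 100 with a 2-fold change at 200 bp. The simulation took only the 21618 windows that passed the filter, as 13.4% of receptor windows did. It does not give the recovery at the other receptor windows.

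Members and gene lists were chosen with earlier results of these data known, and the CPM bins after the values were seen. Named were up to 10 called rises and falls with the largest fold changes, the 5 windows of highest CPM overall and within 1 kb, receptors reported in gut, up to 5 clusters of smallest p per direction and the 5 with the most windows; others are marked in the text. Casein kinase genes, whose symbols share the caseins' prefix, were left out of the tissue-restricted clusters.

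Experiments are numbered 1 to 3 in both groups, in the labels. Deviations of same-numbered libraries from their group means correlated at -0.034, 0.015 and -0.013, so the main fits have no block, and fits with a block are given where they change a call.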

Additional observations from a re-analysis of the deposited data

How the results depend on the processing

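Counts of called receptor windows at 200 bp depended most on the filter and tool: against 5 higher and 20 lower, DESeq2 gave 21 and 10, no filter on low counts gave 25 higher, and only the windows inside a receptor cluster gave 1 higher. Leaving out each library in turn gave 6 to 21 higher and 15 to 21 lower; 123 to 132 receptor windows passed the filter in the fits without control 3, RANKL 1 or RANKL 2, which gave 14 to 21 higher. At 2 kb the limma counts of 34 higher and 26 lower became 20 to 29 and 15 to 31 with a library left out, and 83 higher in edgeR on recovered counts. Cluster sums, 18 higher and 7 lower, became 11 to 17 and 5 to 7, with 11 higher without control 2 or RANKL 3. Background shares of the fits with a library left out are not given here, so their counts show only how far the calls depended on single libraries. The log2 ratio of the 200-bp share ranged from 0.079 to 0.213, that of the 2-kb share from 0.287 to 0.359 and that of the central share from -0.415 to -0.329. Without a library the smallest exact p is 0.2. Among 45 named windows and clusters, 23 of 38 calls held in every alternative run; of 446 values, 389 kept their direction and side of the threshold, 52 lost the call and 5 reversed, none of them called. The reversals were Vmn1r4 without RANKL 3 (0.096; range with a library left out -0.132 to 0.096), Olfr1532-ps1 without control 1 (0.139; range -0.468 to 0.139) and the Olfr543 to Olfr692 cluster without control 3 (0.103), RANKL 1 (0.028) or RANKL 2 (0.040; range -0.177 to 0.103); the cause was not tested. With totals in place of TMM, the summed receptor windows under 10 CPM had a log2 ratio of 0.771 against 0.817, and those at 20 CPM or more -0.435 against -0.389; with 2-kb counts the values were 0.788 and -0.565. The bins, their 2-kb values, loess on 2-kb counts and left-out libraries for shares were added after seeing the data. A median of 2 to 7 counts per receptor window and library limits every single-window value.

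With the experiment number as a block, 5 receptor windows were higher and 18 lower at 200 bp, 39 and 29 in the 2-kb scores, and 16 and 7 clusters. Background shares of the block fits are not given here, so these counts show only how far the calls depended on the block. Among the named windows and clusters the block ended 3 calls (Olfr933, Vmn1r191 and the Vmn2r90 to Vmn1r237 cluster) and changed no other. The numbers did not pair the libraries by their deviations.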
